A study of Drosophila melanogaster with 13 samples.

Results

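A pair of ChIP-seq peak lists was compared between developmental stages of Drosophila melanogaster egg chambers: stages 12-13, pooled, against stage 10. They belong to the 2 of the 13 samples of the series whose titles and antibody labels say SUUR, while the run name in the header of each list says Cdc45. The antibody is therefore in conflict between label and header, and the lists are called here by stage alone. Egg chambers came from the wild-type strain OrR, from females fattened on wet yeast, were fixed in 2% formaldehyde and were collected at 600 per ChIP. Both lists were made with an in-house antibody, and each was called against the input of its own stage. IgG lists of both stages, and the pair of lists labelled Cdc45 (run name SUUR), were used as backgrounds. Each stage and antibody has 1 library, so no difference between stages has a replicate check and no test between stages was possible.

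Egg chambers hold an oocyte, polyploid nurse cells and a layer of follicle cells. Late in oogenesis the follicle cells stop genome-wide replication and amplify a few regions that carry eggshell genes, the Drosophila amplicons in follicle cells (DAFC), by firing origins repeatedly. In the later stages forks move outward from these origins. Cdc45 is a part of the replicative helicase that travels with forks, and SUUR is a chromatin protein of late replicating regions that slows fork progression. Whole egg chambers were used, so the part of each cell type in a peak cannot be told apart. Nor can a change in the make-up of cell types between the stages be told apart from a change in peaks.

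The list of stages 12-13 held 9875 peaks from 4824942 tags after duplicate removal, and the stage 10 list held 5147 peaks from 353742 tags. The later library was thus 13.6 times deeper. Duplicates made up 64% and 50% of the tags. Because the stage 10 library is so shallow, peaks were used only with a pileup (tags over the summit) of 5 or more. All 9875 peaks of stages 12-13 passed, since their lowest pileup was 7, and 496 of the 5147 stage 10 peaks did (9.64%). The lowest pileup of stages 12-13 equals 1.45 tags per 1000000 tags of its library, while a pileup of 5 at stage 10 equals 14.1, so the limit is not equally strict. Of the 187 stage 10 peaks with exactly 5 tags, just inside the limit, 46.5% overlapped a later peak, and of the 447 with 4 tags, just outside it, 26.4% did. With 1 tag kept per position and strand, a pileup cannot pass 92 tags at stages 12-13 and 98 at stage 10, and both lists reached these values. Pileups of strong peaks are therefore compressed, and widths and pileups are compared within a list only. Coordinates are of Release 5 (dm3). Intervals are Wilson 95% intervals, which cover counting error only. They treat each peak as independent, so they are too narrow where many peaks lie in 1 locus.

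A stages 12-13 peak was called kept when it overlapped a stage 10 peak by 1 bp or more and gained when it did not. A stage 10 peak was called kept when it overlapped a later one and lost when it did not. Of the 9875 peaks of stages 12-13, 221 were kept (2.24%, 1.96 to 2.55%) and 9654 were gained. Of the 496 stage 10 peaks, 324 were kept (65.3%, 61 to 69.4%) and 172 were lost. This majority rests on the limit and on IgG peaks: the stage 10 share was 16.2% with no limit on pileup, 29.2% with a later limit scaled by depth, and 29.4% with peaks over IgG left out. In base pairs, kept peaks made up 11.5% of the later list and 81.7% of the stage 10 list. The same rule kept 31.3% of the IgG peaks of stages 12-13 and 39.7% of those of stage 10. In the lists labelled Cdc45 it kept 67.4% of the peaks of stages 12-13 and 36.3% of those of stage 10. No order between the antibodies can be read from these shares. The limit took no peak from the IgG and labelled Cdc45 lists, and with no limit the stage 10 share of 16.2% lay below theirs, while with the scaled limit the share of stages 12-13 (91.2%) lay above theirs.

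The split moved with depth. When the limit at stages 12-13 was raised by the ratio of depths, to 68.2 tags, 68 later peaks remained and 62 of them were kept (91.2%), which leaves 6 gained. Of the 9654 gained peaks, 464 (4.81%, 4.4 to 5.25%) lay over a stage 10 peak under the limit, with 2 to 4 tags. Over the other 9190 no stage 10 peak of any pileup was listed. A gained peak is thus one with no stage 10 peak of 5 tags or more over it. A new site cannot be told apart from one that the shallower library did not show, or showed only under the limit.

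By chromosome class, U and Uextra held 56.6% of the kept later peaks and 64% of the later list, and 39.8% of the kept stage 10 peaks and 31.2% of that list. On the arms of the large chromosomes 82 of 3183 later peaks were kept (2.58%, 2.08 to 3.19%), and 175 of 309 stage 10 peaks (56.6%, 51.1 to 62%). IgG on the arms gave 8.15% at stages 12-13 and 53.4% at stage 10, and the lists labelled Cdc45 gave 52.4% and 30.5%. In U and Uextra, the unplaced sequence, 125 of 6316 later peaks (1.98%, 1.66 to 2.35%) and 129 of 155 stage 10 peaks (83.2%, 76.6 to 88.3%) were kept. Among Het scaffolds, which hold heterochromatin next to centromeres, 5 of 328 later peaks and 5 of 12 stage 10 peaks were kept. Chromosome 4, the small and largely heterochromatic one, had 2 of 26 later peaks kept and 2 of 6 stage 10 peaks. The mitochondrial genome had 7 of 22 later peaks and 13 of 14 stage 10 peaks kept. Of all gained peaks, 64.1% lay in U and Uextra and 32.1% on the arms, close to the make-up of the later list as a whole (64% and 32.2%). Of all lost peaks, 77.9% lay on the arms, against 54% of the stage 10 peaks that were kept.

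**Figure D1:**
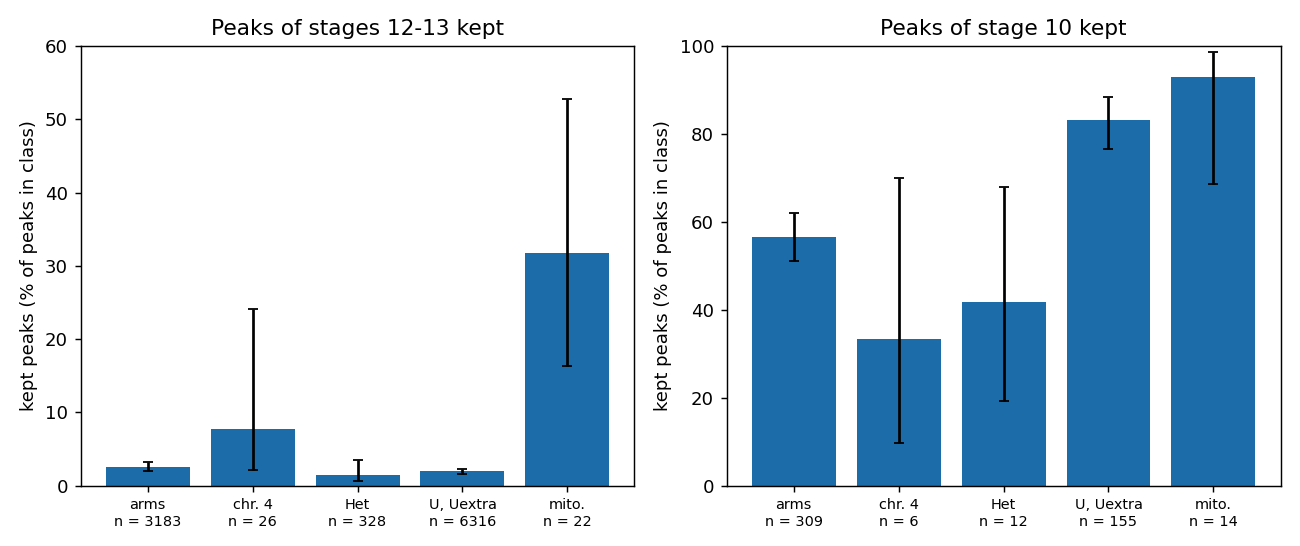
Kept peaks as a percentage of the peaks in each chromosome class, for the list of stages 12-13 (left, axis to 60%) and the stage 10 list (right, axis to 100%), with Wilson 95% intervals and the number of peaks. At stage 10 the arms (56.6%) lie below U and Uextra (83.2%), and at stages 12-13 both lie under 3%.

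The order of arms and other sequence depended on the peaks counted. Outside the arms 139 of 6692 later peaks (2.08%) and 149 of 187 stage 10 peaks (79.7%) were kept, against 37.5% and 39% of the IgG peaks there. At stages 12-13 the arms lay above the rest here (2.58% against 2.08%), but below it with no limit on pileup (4.93% against 7.89%) and without the 6 amplicon windows (1.76% against 2.08%). Of the kept stage 10 peaks outside the arms, 143 of 149 overlapped an IgG peak of either stage. With peaks over IgG of their own stage left out, 4 of 51 stage 10 peaks outside the arms were kept (7.84%), against 87 of 258 on the arms (33.7%). In the later list, 135 of the 139 kept peaks outside the arms overlapped IgG (97.1%), against 48 of 82 on the arms (58.5%). Gained peaks overlapped IgG less, in 57.5% outside the arms and 13.4% on them. Kept peaks outside the arms were thus nearly all at IgG peaks too, and the part of IgG signal in their recurrence was not tested.

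Among the arms, 3L and X kept the largest shares. On 3L 26 of 629 later peaks (4.13%) and 112 of 133 stage 10 peaks (84.2%, 77.1 to 89.4%) were kept, and on X 40 of 850 (4.71%) and 48 of 95 (50.5%, 40.6 to 60.4%). On 2L, 3R and 2R the kept stage 10 peaks numbered 7 of 31, 6 of 28 and 2 of 22. The chorion amplicons DAFC-66D and DAFC-7F lie on 3L and X, and together they held 125 of the 175 kept stage 10 arm peaks (71.4%) and 33 of the 82 kept later arm peaks (40.2%). Those 33 peaks carried 90.5% of the kept arm base pairs of stages 12-13. Outside 9 approximate windows (6 amplicons, the histone cluster, and the homeotic Bithorax and Antennapedia complexes), 46 of 2314 later arm peaks (1.99%) and 47 of 171 stage 10 arm peaks (27.5%, 21.3 to 34.6%) were kept. Of the IgG peaks there, 8% at stages 12-13 and 55.9% at stage 10 were kept. Of the kept stage 10 arm peaks 128 of 175 thus lay in the amplicon windows, but of the kept later arm peaks 36 of 82 did (43.9%), although these held 91% of the kept arm length. Outside the windows the kept shares lay below those of IgG. The IgG libraries had 2592149 tags at stages 12-13 and 3891175 at stage 10 after duplicate removal, so their depths were far closer to each other. No order between this pair and IgG can be read from these shares.

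DAFC-66D, which carries the chorion genes Cp15, Cp16, Cp18 and Cp19, had the most kept peaks of any window. All 106 of its stage 10 peaks were kept, with pileups of 5 to 19 tags (median 7) and widths up to 2526 bp. They fell into 20 later peaks, and 1 of these, 3L:8703201-8719929, 16729 bp wide with 85 tags, held 29 of them. Kept and gained later peaks covered most of each 5 kb bin in this stretch. An overlap of 1 bp was therefore close to given for any stage 10 peak there. Next to the 77100 bp of kept peaks the window held 123 gained peaks over 53403 bp. The gained ones lay mainly at the flanks: 61 peaks with 14.6 kb before the first kept peak, 54 with 21.7 kb after the last, and 8 with 17 kb between kept peaks. Stage 10 peaks of 5 tags or more ran from 8675354 to 8768137, a span of 92.8 kb, and gained peaks from 8638594 to 8814139, a span of 176 kb. With no limit on pileup, the 153 stage 10 peaks of the window ran from 8628535 to 8883257, a span of 255 kb. The wider span of gained peaks thus holds only under the limit of 5 tags. None of the 123 gained peaks overlapped an IgG peak of either stage, while 10 of the 20 kept ones did. In the list labelled Cdc45 of stages 12-13, 19 of the 123 gained and 19 of the 20 kept peaks had a counterpart. The 20 kept peaks covered more length than the 123 gained ones, and the part of width in these overlaps was not tested.

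DAFC-7F on X (Cp36 and Cp38, chorion genes) had a smaller kept part and more gained peaks. Of its 22 stage 10 peaks 19 were kept, in 13 later peaks over 15737 bp, and 174 gained peaks covered 28481 bp. None of the kept or gained peaks overlapped IgG. The kept peaks lay in a pair of blocks within 8349269 to 8396284. In those blocks the best covered bins of 5 kb were 78.8% and 90.6% covered by kept peaks at stages 12-13, and 8.76% and 10.5% at stage 10. Gained peaks filled the outer sides of both blocks and reached the low-coordinate edge of the window, with 85 peaks below the first kept one, 34 between kept ones and 55 above. The extent at either amplicon was read from libraries of unequal depth, so spread of peaks and greater depth cannot be told apart.

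**Figure D2:**
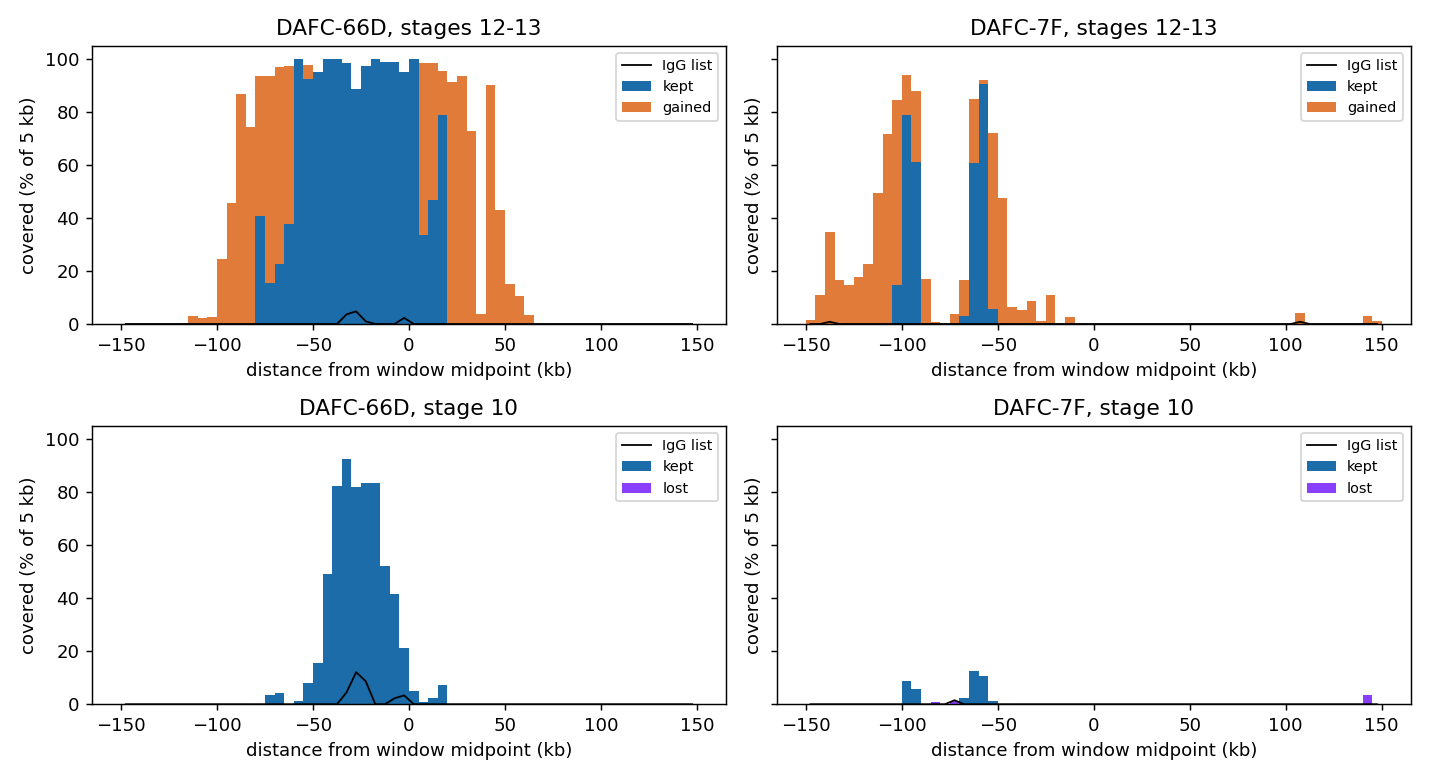
Share of each 5 kb bin covered by kept peaks (blue) and by gained (orange, stages 12-13, top row) or lost peaks (purple, stage 10, bottom row), by distance from the midpoint of the approximate DAFC-66D and DAFC-7F windows, with the IgG list of the same stage as a black line. At stages 12-13 gained peaks flank the kept block of DAFC-66D on both sides, and at DAFC-7F 2 blocks are seen. At stage 10, DAFC-66D bins reach 92.5% and DAFC-7F bins 12.5%.

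The other amplicon windows differed in how densely they held gained peaks. In the DAFC-34B window on 2L (13300001 to 13600000), which carries the vitelline membrane gene Vm34Ca, 3 of 130 later peaks were kept (2.31%, near the 2.24% of the whole list) and 127 were gained, over 534 and 17795 bp. Its 423 gained peaks per Mb compare with 18.9 per Mb on 2L outside the 9 windows. Of the 127, 99 with 14665 bp lay in its first 100 kb, where neither IgG list and neither list labelled Cdc45 had a peak. In the DAFC-22B window on 2L (1.8 to 2.1 Mb) all 86 later peaks were gained, with 2.24% kept in the whole list. They covered 8952 bp, at 287 per Mb. There too most lay in 100 kb, 1900001 to 2000000, with 67 gained peaks, no IgG peak and 2 peaks labelled Cdc45 at stages 12-13. The 2 stage 10 peaks of DAFC-22B, with 5 tags each, were lost but lay in this same stretch. DAFC-62D, which carries eggshell genes of the yellow family, had 6 gained peaks over 569 bp, at 20 per Mb, close to the 19.8 per Mb of 3L outside the windows. DAFC-30B on 2L had 15 over 1192 bp, at 50 per Mb. Neither had a kept peak. The Bithorax and Antennapedia windows held no peak of 5 tags or more in either list.

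The histone gene cluster, a tandem array on 2L, gained the most peaks of the 9 windows. Between 21400001 and 21600000 all 302 later peaks were gained, over 43612 bp, with a median pileup of 17 and a highest of 28. In the whole later list 9654 of 9875 peaks were gained, and 0.78% of those with 10 to 19 tags were kept. The lack of kept peaks is thus close to the share of the list. Stage 10 had 2 peaks of 5 tags there, both lost, and 8 under the limit. IgG had 72 peaks over 4693 bp in the same window at stages 12-13, and 47 of the 302 gained peaks overlapped one. The window thus had more covered length than in IgG, but from 4824942 tags against 2592149 for IgG. The part of depth in this was not tested. The lists labelled Cdc45 had 57 peaks over 5272 bp there at stages 12-13 and 113 over 8054 bp at stage 10. Counts in a repeated array depend on how reads were placed among its copies, which is not given in the sources used here.

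**Figure D3:**
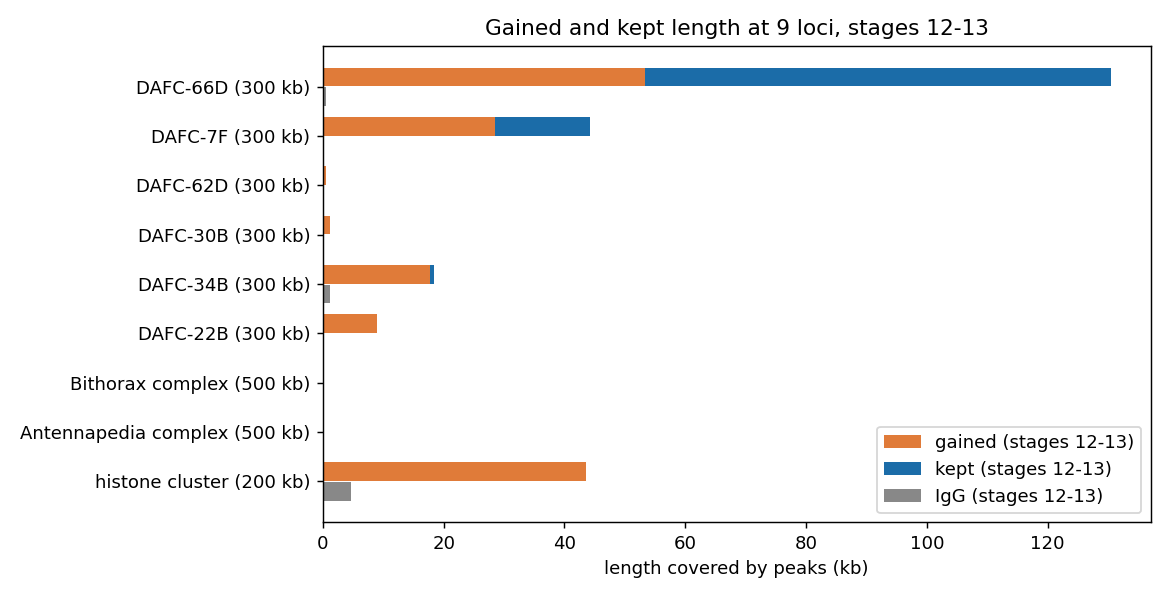
Length covered by gained (orange) and kept (blue) peaks at stages 12-13 in 9 approximate windows of 200 to 500 kb, with the IgG list of stages 12-13 (grey). DAFC-66D is the window with most kept length (77100 bp). The histone cluster (43612 bp gained) and DAFC-22B had no kept peak, and DAFC-34B had 3. The whole later list kept 2.24% of its peaks and 11.5% of its length.

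Gained length was concentrated. Of the 393755 bp gained on arms, chromosome 4 and Het scaffolds, the 10 windows of 100 kb with the most held 39%. In order, 2L 21400001 to 21500000 (28014 bp), 3L 8.7 to 8.8 Mb (26426 bp), 3L 8.6 to 8.7 Mb (25524 bp) and X 8.3 to 8.4 Mb (23950 bp) came first. The next 4 were also in the histone, DAFC-34B, DAFC-22B and DAFC-7F windows. The remaining 2 lay on X, 2600001 to 2700000 (4078 bp in 2 peaks) and 13900001 to 14000000 (3928 bp in 36 peaks), and IgG covered 4037 and 6514 bp there at stages 12-13. Of the 16 gained arm peaks of 1 kb or more, 13 lay in DAFC-66D, 1 in DAFC-7F and 2 elsewhere, X:2684000-2687273 and 2R:937617-938689.

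Among the 10 gained peaks of highest pileup outside U, Uextra and the mitochondrial genome, 6 were in DAFC-66D and 2 in DAFC-7F, with 37 to 48 tags. The widest, 3L:8756754-8762585, was 5832 bp wide with 44 tags and an authors' fold enrichment over input of 6.26, and 2 stage 10 peaks of at most 4 tags lay inside it. The first of the 10 by pileup, 2L:20204097-20204159, had 49 tags in 63 bp and overlapped IgG of stages 12-13 and both lists labelled Cdc45. X:2684000-2687273 had 37 tags and the highest fold of the 10, 13.2, and overlapped IgG of both stages. The 8 amplicon peaks overlapped no IgG peak. The 34 gained peaks of 50 tags or more, up to 76, all lay outside the arms and are left out of this ranking.

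Beyond the 9 windows, gained peaks were narrow and came in groups. The 2268 such peaks on the arms had a median width of 72 bp and a median of 10 tags, and 80% lay within 1 kb of another gained peak. X had 28.8 of them per Mb (length up to the last peak), against 15.2 to 19.8 per Mb on the other arms. IgG peaks of stages 12-13 were also densest on X, at 17.2 per Mb against 8.94 to 11.8 per Mb. Of the gained peaks away from the windows, 6.22% lay within 10 kb of a kept peak and 11.3% within 100 kb. The share that evenly placed peaks would give was not computed, so these values do not show nearness or its lack.

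The kept peaks outside the 9 windows on the arms were few and mostly shared with IgG. Of these 46 later peaks 38 overlapped an IgG peak, and 27 of the 46 lay on X. A run of 11 on X, between 13941683 and 13954539, had summits 760 to 1533 bp apart (median 1272 bp) and 23 to 30 tags each, and all 11 overlapped IgG. The strongest were X:922585-923400 and X:923449-924356 with 73 tags each, and 3R:126860-126985 with 64 tags at stages 12-13 and 56 at stage 10. All 3 were also in both IgG lists and both lists labelled Cdc45. Only 8 of the 46 overlapped no IgG peak. They were 46 to 356 bp wide, and 4 of them were in a list labelled Cdc45, among them 3R:23691359-23691714 with 18 tags.

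Kept peaks were wider and higher than the rest within each list. Since an overlap of 1 bp is enough, a wider peak is more readily called kept by the rule itself. At stages 12-13 the median width was 147 bp for kept and 79 bp for gained peaks, and the median pileup 41 and 11 tags. At stage 10 the median width was 95 bp for kept and 62 bp for lost peaks, and the median pileup 7 and 5 tags. The ranges overlapped throughout: gained peaks reached 76 tags, and kept later peaks went down to 9. The kept share of later peaks was 0.0994% at 5 to 9 tags (3 of 3019), 0.78% at 10 to 19, 10.5% at 20 to 49 and 74.2% at 50 or more (98 of 132). On the arms all 22 later peaks of 50 tags or more were kept, and outside them 76 of 110. By width it was 1.46% under 200 bp, 5.84% from 200 to under 500 bp, 21.2% from 500 to under 1000 bp and 63.6% at 1000 bp or more (28 of 44).

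**Figure D4:**
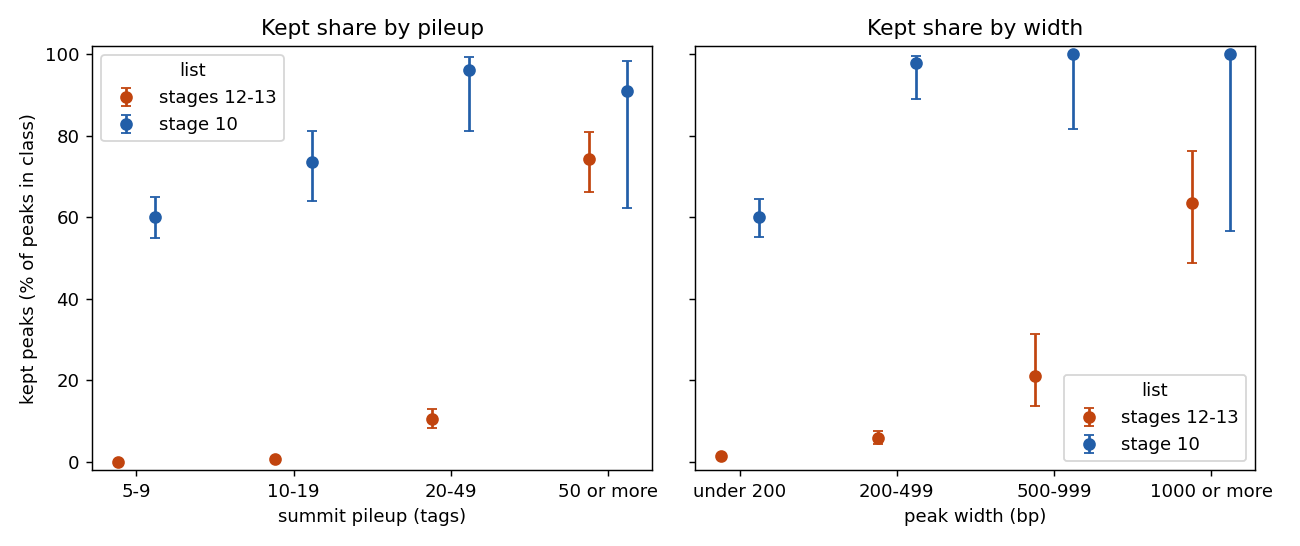
Kept share by class of summit pileup (left) and of peak width (right) for the list of stages 12-13 (red) and the stage 10 list (blue), with Wilson 95% intervals. At stages 12-13 it is 0.0994% at 5 to 9 tags and 74.2% at 50 or more, and at stage 10 it is 60.1% at 5 to 9 tags and 96.2% at 20 to 49.

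In the stage 10 list both wider and higher peaks were kept more often. Of the 69 stage 10 peaks of 200 bp or more, 1 was lost. Under 200 bp, 256 of 427 were kept (60%, 55.2 to 64.5%). By pileup the kept share was 60.1% at 5 to 9 tags, 73.5% at 10 to 19, 96.2% at 20 to 49 and 90.9% at 50 or more (10 of 11). On the arms, stage 10 peaks under 200 bp were kept in 47%, and all 9 with 20 tags or more were kept. Inside the 9 windows stage 10 pileups reached at most 19 tags, so all 9 of these peaks lay outside them. The later peaks that these 9 overlapped all overlapped an IgG peak of either stage.

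**Figure D5:**
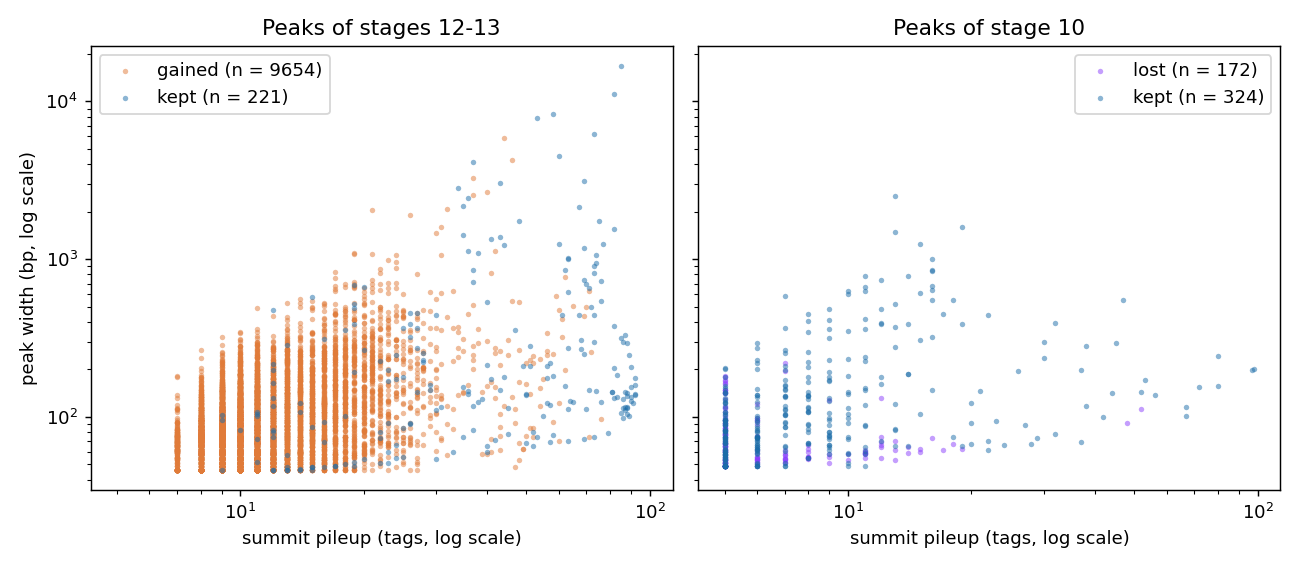
Peak width against summit pileup, both on log scales, for gained and kept peaks of stages 12-13 (left) and lost and kept peaks of stage 10 (right), 1 point per peak. Lost stage 10 peaks lie at the bottom, none wider than 219 bp, while kept later peaks reach 16729 bp.

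The 172 lost peaks were narrow and scattered. Their widths ran from 49 to 219 bp with a median of 62 bp, and 148 were under 100 bp. The caller's fragment length for this library was 49 bp. Of the 126 windows of 100 kb that held a lost peak, 108 held 1 and none more than 3. The 10 windows with the most lost length held 161 to 270 bp each. The first 2 lay in the DAFC-22B window (2L 1900001 to 2000000) and the DAFC-34B window (2L 13400001 to 13500000, 268 bp), and 1 more in DAFC-7F. In 3 of these 10 windows no later peak was listed. Outside the 9 windows X had 1.99 lost peaks per Mb, against 0.776 to 0.946 on the other arms, but X also held more stage 10 peaks. Of its 73 there 60.3% were lost, against 77.8 to 90.9% on the other arms. Stage 10 IgG peaks were densest on X as well, at 4.61 per Mb against 0.851 to 1.51. The 10 of highest pileup on placed chromosomes had 12 to 19 tags in 59 to 70 bp, with authors' folds of 11.1 to 17.3. The first was X:19291853-19291915, with 19 tags in 63 bp and no peak in any of the other lists, and 4:119133-119199 followed with 18 tags. Of these 10, 7 overlapped an IgG peak of either stage and none a peak labelled Cdc45, whereas of all 172 lost peaks 31 (18%) overlapped IgG and 24 a peak labelled Cdc45. The 2 lost peaks of 20 tags or more, with 52 and 48, lay in Uextra. They fall outside the rule for named peaks and were chosen after their values were seen. Of all lost peaks 118 were in none of the IgG and labelled Cdc45 lists.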

How the data were processed

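CASAVA 1.5, BWA, MACS and the build dm3 are named in the submitters' processing notes. MACS 2.0.10.20130419 called peaks in each library against the input of the same stage, with a p-value limit of 1e-03, a genome size of 1.2e+08 and 1 tag kept per position, per the file headers. Each list gives the authors' pileup signal at the summit (whole tags, since the larger input was scaled to the ChIP), the −log10 of the p-value and a fold ratio over the input, as deposited. No q-values were computed, per the file headers, so none were used.

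Overlaps, widths and Wilson intervals were computed with Python 3.11.15, pandas 2.3.3, numpy 2.4.6 and scipy 1.17.1, and the overlap code was tested on simulated peaks. The salivary gland lists were not used. Windows of the 9 loci were written from general knowledge, are approximate, and hold a peak by its summit. Peaks were not placed in genes, because the annotation at hand is of another build (Release 6). No genome sequence was used. Named were the 10 gained, kept and lost peaks of highest pileup outside U, Uextra and the mitochondrial genome, the 10 windows of 100 kb with most gained and with most lost length, and the 9 loci; other peaks named were chosen after their values were seen. Members, loci and the pileup limit were chosen with earlier results of these data known. Alternatives changed the pileup limit, the overlap, the list length, the p limit, IgG, amplicons and merging.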

Additional observations from a re-analysis of the deposited data

How the results depend on the processing

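No paired analysis was possible because each stage has 1 library, and no replicate could be left out. Shares below are kept shares of all peaks, of arm peaks and of peaks outside the arms, in that order. With no limit on pileup they were 6.94, 4.93 and 7.89% at stages 12-13 and 16.2, 8.23 and 32.5% at stage 10, with 4311 lost peaks. At 10 tags or more they were 1.2, 1.4 and 1.1% and 79.3, 71.8 and 87.5%, with 28 lost. With the limit scaled by depth they were 91.2, 100 and 90.2% and 29.2, 25.9 and 34.8%, with 6 gained and 351 lost, since 68 later peaks remain. Against any pileup in the other list, stages 12-13 gave 6.94, 4.93 and 7.89%. With the summit inside the other peak they gave 1.6, 1.54 and 1.63%. With equal numbers of peaks, 496 a side, the shares were 30.8, 57.1 and 26.5% and 51.2, 42.4 and 65.8%, with 343 gained. With the upper 50% by p, 4815 were gained and 87 lost, by construction of shorter lists. With peaks over IgG left out the shares were 0.566, 1.27 and 0.0969% and 29.4, 33.7 and 7.84%. Without the 6 amplicon windows 1.76% of later arm peaks, 54.4% of stage 10 peaks and 27.2% of those on the arms were kept. Without the histone cluster too, an alternative chosen after seeing the data, the arm shares were 1.99 and 27.5%. With peaks within 1 kb merged, the shares were 3.2, 4.06 and 2.98% at stages 12-13, with 4783 gained, and at stage 10 54.5% of all and 35.5% of arm peaks. An overlap of 50% of the shorter peak moved no share beyond its interval. With each list split at its median width or pileup, the wider or higher side was kept more often in 43 of 44 comparisons. The comparisons all reuse the same pair of lists, so they are not independent, and the overlap rule itself favours wider peaks. The exception among the 44 was width at stages 12-13 with the scaled limit, with 88.2% of the wider and 94.1% of the narrower peaks kept. The stage 10 depth of 353742 tags limits all of these values, and causes of the other shifts were not tested.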

Other observations

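Overlap with the lists labelled Cdc45 differed between the groups of peaks. These lists held 13241 peaks over 1979692 bp at stages 12-13 and 24764 over 2886064 bp at stage 10. The IgG lists were shorter, with 6933 peaks over 656959 bp and 5551 over 607611 bp. A longer list is overlapped more readily, so shares over different lists cannot be ranked, and the part of list length was not tested. On chromosome 4 and the Het scaffolds, 195 of 347 gained peaks overlapped a peak labelled Cdc45 of stages 12-13 (56.2%, 50.9 to 61.3%) and 223 one of stage 10 (64.3%), while 92 overlapped IgG of either stage (26.5%). On the arms outside the 9 windows the shares of gained peaks were 30.3% and 37.6%, with 15.5% over IgG. In the DAFC-66D window 15.4% of gained peaks overlapped a peak labelled Cdc45 of stages 12-13 and none one of stage 10, and in the DAFC-7F window 21.8% and 2.3% did. Of the stage 10 arm peaks, 86.3% of the kept and 3.73% of the lost overlapped a peak labelled Cdc45 of stages 12-13, and 31.4% and 14.9% an IgG peak of either stage. Most of these kept peaks lay in the DAFC-66D window, which had no lost peak. In that window 96.2% of the kept overlapped a peak labelled Cdc45 of stages 12-13. On the arms outside the 9 windows, 68.1% of the kept and 4.03% of the lost did. There 87.2% of the kept and 16.1% of the lost overlapped an IgG peak of either stage. These are lists of 1 library each, the label conflict applies to all 4, and the lists of a stage share 1 input.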
